A study of Mus musculus with 2 samples.

Results

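Receptor subunits for interleukins, interferons and CSF2 were examined in nuclear RNA of mouse macrophages, as 44 genes chosen by name out of 55536 genes in the gene tables. The cells were macrophages grown from bone marrow (BMDM) of C57BL/6J mice and treated with Lipid A, the lipid anchor of bacterial endotoxin and a ligand of the receptor TLR4, at 100 ng/ml for 120 min. Total RNA of the nucleoplasmic fraction was depleted of ribosomal RNA and sequenced in 2 libraries, which form 1 group of 2 replicates. Replicate 1 was made from 1 µg and replicate 2 from 500 ng of RNA, and the labels give both the same donor entry with separate biosamples. No untreated group is among the samples used here, so levels are described and no effect of Lipid A is measured. With 1 group there is no test, and the spread between the 2 libraries, which may be technical, is the error given.

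These receptors work in pairs or larger complexes. A subunit that is specific for its ligand joins a shared signalling subunit, such as the common gamma chain Il2rg, the common beta chain Csf2rb, gp130 (Il6st) or the accessory protein Il1rap. Most of them signal through JAK kinases and STAT factors, while the IL1 family and IL17 receptors use adaptor proteins such as Myd88 and Traf3ip2. Several genes also give shortened proteins without a membrane anchor, which bind ligand outside the cell, and in macrophages these receptors read the cytokines that neighbouring cells and the macrophages themselves release.

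Levels are in TPM, which divides the reads of a gene by its length and scales each library to the same sum, so that genes can be compared. All values come from the authors' alignment-based tables unless the authors' table made from the read files is named. The 2 libraries held 14374739 and 16372797 estimated counts in genes, of which the 44 genes took 0.339% and 0.298%. All 10 macrophage markers of a list (Lyz2, Cd68, Csf1r and others) were at 1 TPM or more in both libraries. Of the other lists, 0 of 8 neutrophil, 0 of 6 B cell and 2 of 10 T and NK cell markers (Cd4 and Lck) were at that level in both, and 1 of 7 mast cell and basophil markers (Hdc). The libraries differed in make-up. Mitochondrially encoded genes took 0.492% of the TPM in replicate 1 and 11.2% in replicate 2, and 10 stromal markers summed to 90.7 TPM in replicate 1 and 0.86 TPM in replicate 2. The 10 macrophage markers summed to 1049 TPM in replicate 1 and 2274 TPM in replicate 2, with Lyz2 at 402.7 and 1316 TPM. In bulk RNA such as this, fewer cells of a type and less RNA per cell cannot be told apart.

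Of the 44 subunits, 24 were at 1 TPM or more in both libraries, here called detected, 29 had 10 or more counts in both, and 5 had 0 counts in both. For those 5, 3 counts would be at most 0.154 TPM in replicate 1 and 0.102 TPM in replicate 2. Of 22015 nuclear-encoded protein-coding genes, 40.4% were detected by the same rule. The median subunit was at 3.14 TPM in replicate 1 and 2.05 TPM in replicate 2, against 0.5 and 0.24 TPM for protein-coding genes. Among detected genes the subunits' median was 17.8 and 20.0 TPM, against 10.7 and 7.35 TPM for protein-coding genes. By family, 4 of 4 interferon receptor subunits, 3 of 4 of the beta common family, 5 of 7 of the gamma chain family and 2 of 3 IL4 and IL13 receptor subunits were detected. Detection was sparser for the gp130 family at 3 of 5, the IL10 family at 3 of 6, IL12 and IL23 at 1 of 3, the IL1 family at 2 of 7 and IL17 at 1 of 5.

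**Figure D1:**
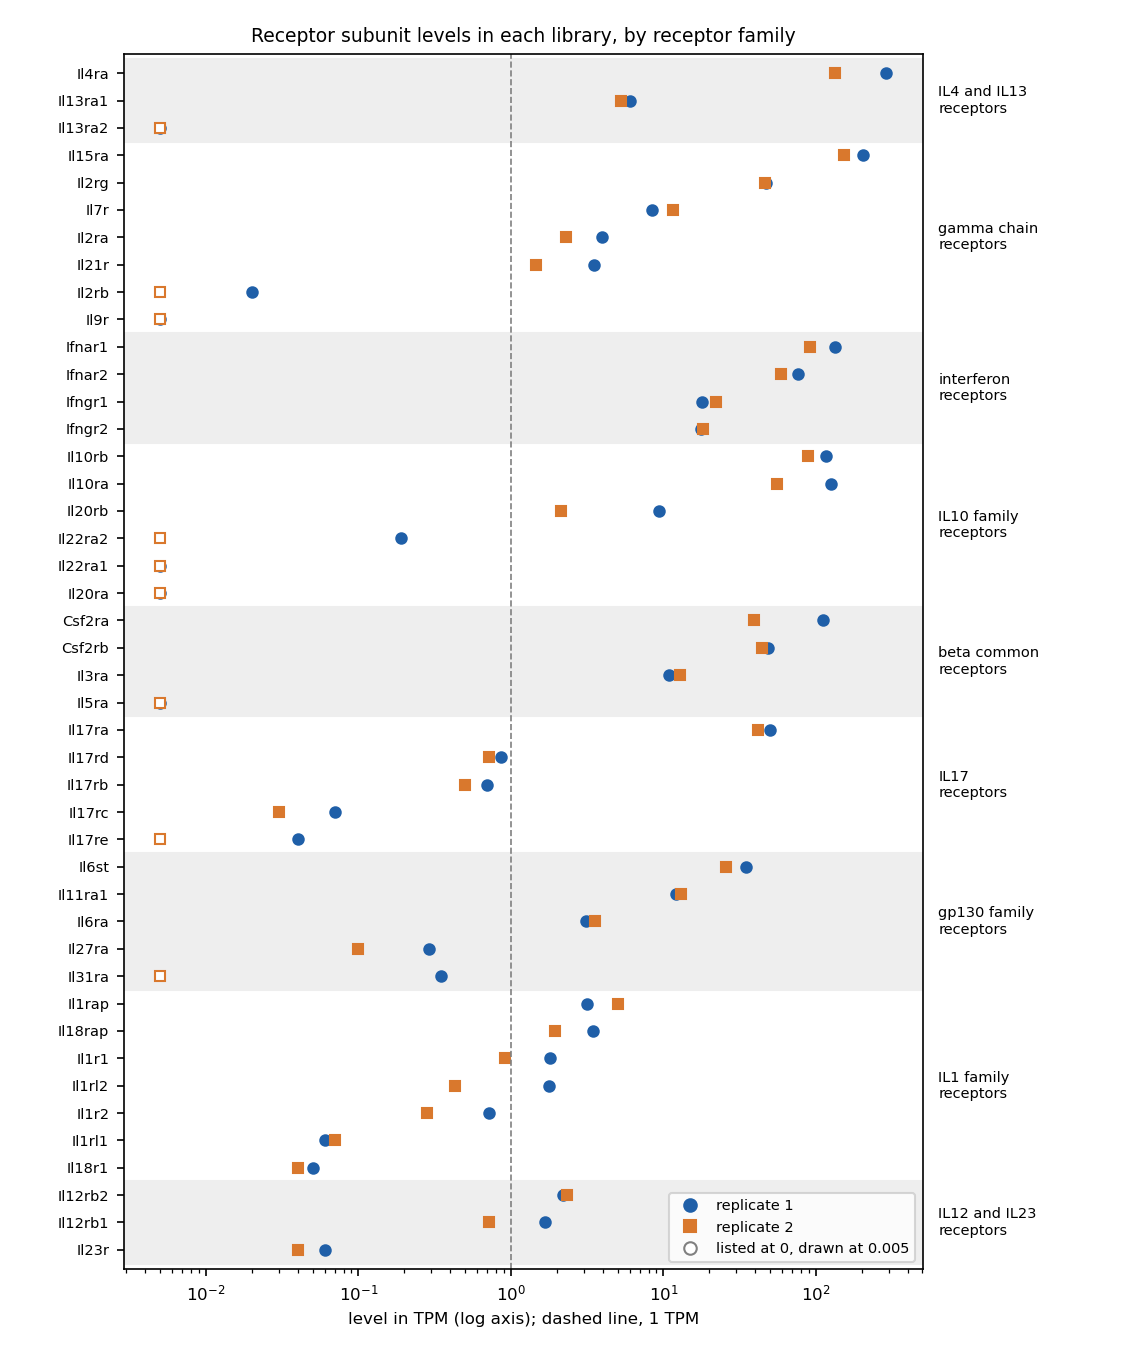
Level of each of the 44 subunits in TPM (log axis) in replicate 1 (circles) and replicate 2 (squares), grouped by receptor family, with open symbols for genes listed at 0. Il4ra and Il15ra lie farthest to the right, and all 4 interferon receptor subunits lie above the dashed line at 1 TPM. Most IL17 subunits lie below that line in both libraries, and most IL1 family subunits do so in replicate 2 alone.

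The transcripts that carry the main differences within genes are shown first by sequence. In Il1rap, Ifnar2 and Il6st a coding transcript ends early where it reads from an exon straight on into the next intron, and in Il4ra and in another Ifnar2 transcript the early end comes from other exon sequence. Each pair of lines below gives the same 24 coding bases in lower case, which both transcripts share, followed in capitals by the bases where they part. The short form is written to its stop codon and the form with the membrane anchor over the next stretch of its coding sequence. All are GENCODE M21 transcripts on mm10, written 5′ to 3′ in the sense of the gene. For Il1rap, on the plus strand of chr16:26581704-26730117, the 32 bases of the short form that are its own lie at the start of an intron:
Il1rap-206: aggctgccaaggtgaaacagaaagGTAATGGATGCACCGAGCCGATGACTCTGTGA
Il1rap-201: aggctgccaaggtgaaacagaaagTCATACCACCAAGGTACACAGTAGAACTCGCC
For Ifnar2, on the plus strand of chr16:91372783-91405589, 2 short forms leave the long form after the same exon, Ifnar2-203 by reading into the intron and Ifnar2-202 by joining exon sequence farther on:
Ifnar2-203: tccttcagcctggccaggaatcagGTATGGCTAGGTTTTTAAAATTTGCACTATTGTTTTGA
Ifnar2-202: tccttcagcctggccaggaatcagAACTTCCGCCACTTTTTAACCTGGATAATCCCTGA
Ifnar2-201: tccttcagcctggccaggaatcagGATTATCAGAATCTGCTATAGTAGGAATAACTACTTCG
For Il4ra, on the plus strand of chr7:125552120-125579474, the short form joins a separate exon that the long form skips:
Il4ra-205: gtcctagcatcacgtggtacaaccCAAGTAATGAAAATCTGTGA
Il4ra-201: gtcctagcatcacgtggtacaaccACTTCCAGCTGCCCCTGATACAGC
For Il6st, on the plus strand of chr13:112464070-112510086, the short form adds only 4 coding bases of intron, 3 of which are the stop codon:
Il6st-206: aaactacactttgaaatcagagtgGTAA
Il6st-203: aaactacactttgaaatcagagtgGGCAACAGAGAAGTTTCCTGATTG
In Il1rap-206, Ifnar2-203 and Il6st-206 the capitals begin with GT, the bases at which these introns start.

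Of the interferon receptors, both subunits of the type I receptor, which binds interferon alpha and beta, were the higher. Ifnar1 was at 132.9 TPM in replicate 1 and 91.5 TPM in replicate 2 (112 ± 29.3, SD, n = 2), and Ifnar2 was at 76.5 and 59.4 TPM (68.0 ± 12.1, SD, n = 2). Ifnar1 was above Ifnar2 within each library, by 1.74 and 1.54 times, although the lower Ifnar1 value lay only 1.20 times above the higher Ifnar2 value. The interferon gamma receptor subunits were lower. Ifngr1, the ligand-binding chain, was at 17.8 and 22.0 TPM, and Ifngr2, its signalling partner, at 17.8 and 18.1 TPM. Their ratio of 1.00 and 1.22 in the alignment-based tables became 0.462 and 0.605 in the table made from the read files, where Ifngr2 stood at 42.1 and 28.2 TPM, so which of the pair was higher depended on the table. A transcript annotated for nonsense-mediated decay, Ifngr2-202, was given 64.7% and 51.9% of the Ifngr2 level there and took 0% and 6.36% in the alignment-based tables.

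Among the IL4 and IL13 receptor subunits, Il4ra was the most abundant subunit of all 44 in replicate 1 and the next after Il15ra in replicate 2. It binds IL4 and pairs with Il2rg or with Il13ra1. Il4ra stood at 289.0 TPM in replicate 1 and 134.0 TPM in replicate 2 (212 ± 110, SD, n = 2), rank 130 and 236 among protein-coding genes. Its partner Il13ra1 was at 6.06 and 5.28 TPM, 47.7 and 25.4 times below Il4ra. Il13ra2, a decoy receptor for IL13, had 0 counts in each library, where 3 counts, the limit for a count of 0, would be 0.126 and 0.0835 TPM. Il4ra overlaps the antisense gene Gm44876 by 1342 bases, and Gm44876 took 191 counts in replicate 1 and 0 in replicate 2, against 13865 and 10305 for Il4ra. Whether the counting used strand is not given in the sources used here, so reads of the 2 genes may not be told apart where they overlap.

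In the common gamma chain family, Il15ra led. This subunit binds IL15 with high affinity and can present it to neighbouring cells. Il15ra stood at 203.4 and 153.1 TPM (178 ± 35.6, SD, n = 2), and its range did not overlap that of the shared chain Il2rg, at 47.0 and 46.1 TPM. That order did not hold for coding transcripts alone, at 36.5 and 28.0 TPM for Il15ra and 36.85 and 41.67 TPM for Il2rg. In the table made from the read files, coding transcripts were 31.3% and 20.1% of 164.3 and 118.5 TPM for Il15ra. For Il2rg they were 77.1% and 90.1% of 31.1 and 30.1 TPM. Coding Il15ra was therefore above coding Il2rg in replicate 1 there and below it in replicate 2. Il7r, the IL7 receptor alpha chain, was at 8.37 and 11.6 TPM, 0.178 and 0.252 of the Il2rg level. Il2ra, the IL2 receptor alpha chain, was at 3.93 and 2.30 TPM, and Il21r was at 3.49 and 1.47 TPM. Il2rb, the signalling chain that IL2 and IL15 share, had 1 and 0 counts, and Il9r had 0 in both. In the table made from the read files Il2rb had 131 and 99 estimated counts, or 1.17 and 0.534 TPM. Among markers of T and NK cells, which carry many of these receptors, Cd3e, Cd3g, Ncr1, Klrb1c and Gzmb had 0 counts in both libraries, while Lck was at 4.74 and 5.24 TPM and Cd4 at 4.17 and 14.5 TPM.

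The beta common family held the receptors for CSF2 and IL3. Csf2ra, the CSF2-binding chain, was at 111.7 TPM in replicate 1 and 39.2 TPM in replicate 2, and Csf2rb, the shared signalling chain, was at 48.8 and 44.6 TPM. Csf2ra was therefore above Csf2rb in replicate 1, by 2.29 times, and below it in replicate 2, at 0.879 times, and the order of the pair was not set by these libraries. In the table made from the read files Csf2ra was below Csf2rb in both, at 0.814 and 0.417 times. Csf2rb has a near-identical neighbour, Csf2rb2, at 57.6 and 56.6 TPM, and counting may split reads between them, so either value is uncertain. The table made from the read files gave Csf2rb 1.92 times its alignment-based mean level, with Csf2rb-203 at 28.1 and 10.2 TPM against 0 and the retained-intron Csf2rb-207 at 25.5 and 19.4 TPM against 3.32 and 2.84. The cause of that gap was not tested. Il3ra, the IL3-binding chain, was at 10.9 and 12.8 TPM, and Il5ra had 0 counts in both.

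In the gp130 family, which holds gp130, chains that signal with it and the related Il31ra, the shared chain was the most abundant. Il6st itself was at 34.8 and 25.9 TPM. Il11ra1, which binds IL11, was at 12.1 and 13.1 TPM, and its annotated span overlaps 6 other genes, including Galt on the same strand. Il6ra, which binds IL6, was at 3.13 and 3.56 TPM, or 0.090 and 0.138 of the Il6st level. Il27ra had 3 and 5 counts, and Il31ra had 9 and 0.

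In the IL10 family, both chains of the IL10 receptor were among the most abundant subunits. Il10rb, which several IL10-related cytokines share, was at 117.3 and 89.4 TPM, and Il10ra, which binds IL10, was at 124.9 and 55.7 TPM. The ratio of Il10ra to Il10rb was 1.06 in replicate 1 and 0.623 in replicate 2, so neither chain was the higher in both, while in the table made from the read files Il10ra was the lower in both, at 0.853 and 0.564. Il10ra overlaps the pseudogene Gm20612 on the other strand over 236 bases, and Gm20612 took 76 and 27 counts against 5734 and 3866 for Il10ra. Il20rb, a chain of the receptors for IL19, IL20 and IL24, was at 9.35 and 2.13 TPM. Its partner chains for those ligands were not seen: Il20ra and Il22ra1 had 0 counts in both libraries and 0 in the table made from the read files. Il22ra2, a secreted binder of IL22, had 6 and 0 counts.

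The IL1 family, the IL12 and IL23 receptors and the IL17 receptors were low, apart from Il17ra. In the IL1 family the shared accessory chain Il1rap was at 3.14 and 5 TPM and Il18rap, the accessory chain of the IL18 receptor, at 3.44 and 1.96 TPM. Il1r1, the signalling IL1 receptor, was at 1.81 and 0.91 TPM, 0.576 and 0.182 of the Il1rap level, and Il1rl2, the IL36 receptor, was at 1.77 and 0.43 TPM. Il1r2, the IL1 decoy receptor, had 4 and 5 counts, Il1rl1, the IL33 receptor, had 4 and 6, and Il18r1 had 1 and 3. Il17ra, the chain that the IL17 receptors share, was at 50.1 and 41.9 TPM, while Il17rd was at 0.86 and 0.72 TPM and Il17rb at 0.70 and 0.50 TPM. Il17rc, the partner of Il17ra for IL17A, had 2 and 1 counts and Il17re had 1 and 0. Il12rb2 was at 2.18 and 2.34 TPM and Il12rb1 at 1.68 and 0.72 TPM, and Il23r had 2 counts in each library. Il12rb2 and Il17rb overlap genes on the other strand, Serbp1 with 1586 and 1625 counts and Actr8 with 294 and 314.

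**Figure D2:**
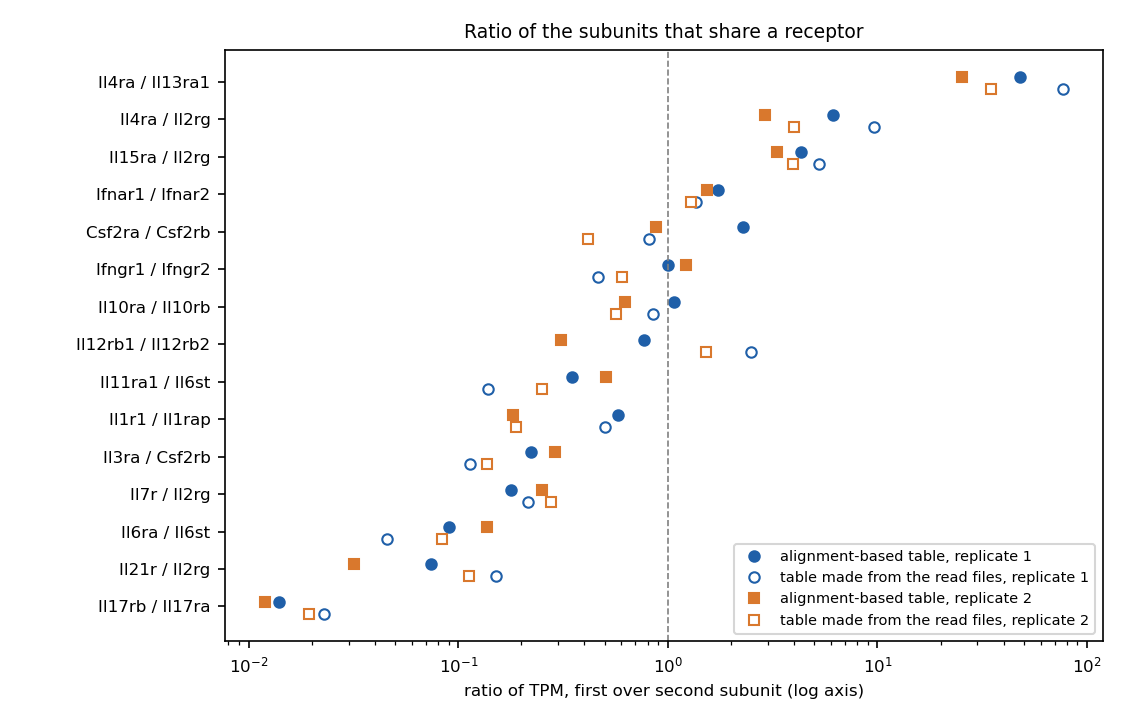
Ratio of TPM of the first to the second subunit (log axis) for the 15 receptor pairs in which both had 10 or more counts in both libraries, with filled symbols for the alignment-based tables and open ones for the table made from the read files. Il4ra over Il13ra1 is farthest to the right at 47.7 and 25.4, Il17rb over Il17ra farthest to the left at 0.0140 and 0.0119, and the open symbols of Ifngr1 over Ifngr2 and of Il12rb1 over Il12rb2 lie on the other side of 1 from the filled ones.

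Across receptor pairs, 15 of the 20 listed could be compared. In 5 the first subunit was the higher in both libraries, in 8 it was the lower in both, and in 2, Il10ra with Il10rb and Csf2ra with Csf2rb, the libraries differed in order. Over all transcripts, the ligand-specific chain was above its shared partner for Il4ra over Il2rg, at 6.16 and 2.91 times. The same was so for Il15ra over Il2rg, at 4.33 and 3.32 times. In coding transcripts alone Il15ra, at 36.5 and 28.0 TPM, was not above Il2rg, at 36.85 and 41.67 TPM, with replicate 1 near a tie. In the table made from the read files, coding Il15ra was above coding Il2rg in replicate 1 and below it in replicate 2. Coding Il4ra was above coding Il2rg in the alignment-based tables, at 139.7 and 70.5 TPM. The ligand-specific chain was below its partner for Il3ra over Csf2rb at 0.223 and 0.288, Il11ra1 over Il6st at 0.347 and 0.506, and Il21r over Il2rg at 0.0743 and 0.0319. In the table made from the read files the same 3 ratios were 0.114 and 0.136, 0.139 and 0.251, and 0.152 and 0.112. These ratios set 2 genes of the same library side by side, and share the value of Il2rg, Il6st or Csf2rb where that chain recurs.

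The levels of several genes, low and abundant, depended on which of the authors' tables was read. All 24 detected subunits were also at 1 TPM or more in both libraries in the table made from the read files, in which 47.3% of protein-coding genes passed that level. A further 4 subunits passed it in that table alone. Il18r1 had 384 and 396 estimated counts there (4.71 and 2.75 TPM) against 1 and 3 in the alignment-based tables. Il31ra had 207 and 137 against 9 and 0, Il12rb1 had 203 and 203 against 52 and 34, and Il17rd had 278 and 289 against 47 and 61. Il17re, with 149 and 94.0 estimated counts against 1 and 0, and Il5ra, with 132 and 118 against 0 and 0, stayed under 1 TPM in replicate 2 in that table. Among the 24 detected subunits the median ratio of the read-based to the alignment-based level was 0.816, and 15 of them lay within 1.5 times. Above that range were 4, Il18rap at 2.79, Ifngr2 at 1.96, Csf2rb at 1.92 and Il21r at 1.63, and below it were 5, Ifnar1 at 0.633, Il10ra at 0.638, Il13ra1 at 0.650, Il11ra1 at 0.657 and Il2rg at 0.658. These ratios were not taken over all protein-coding genes, so whether the subunits differ from other genes in this is not known. The cause of the differences between the tables was not tested, and Il18r1, Il31ra, Il12rb1 and Il17rd are not counted here as detected.

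Some of these genes lie next to each other in the genome. The cluster at chr16:91372783-91565623 holds Ifnar2, Il10rb, Ifnar1 and Ifngr2 within 192841 bases, and all 4 were detected, from 17.8 to 132.9 TPM in replicate 1 and from 18.1 to 91.5 TPM in replicate 2, ranges of 7.49 and 5.06 times. The cluster at chr1:40074079-40551705 holds Il1r2, Il1r1, Il1rl2, Il1rl1, Il18r1 and Il18rap, and only Il18rap of these 6 was detected. At chr7:125552120-125633570 Il4ra is followed by Il21r, which stood 82.8 and 91.2 times lower, and 63.7 and 35.7 times lower in the table made from the read files. Neighbours on chr10 and chr15 were split in the same way, with Ifngr1 detected beside Il22ra2 and Il20ra, and Csf2rb beside Il2rb.

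Short coding forms were given 10% or more of the TPM of several receptors in the alignment-based tables. These shares were not set beside those of other genes. A form was counted as short where its coding sequence was at most 85% of the longest of its gene and ended elsewhere, and a membrane stretch was looked for as 19 residues in a row with a mean Kyte-Doolittle hydropathy of 1.6 or more after residue 40, a description added after the data were seen. By that measure 43 of the 44 longest forms had such a stretch, and the exception was Il22ra2, the secreted IL22 binder. Among the 29 subunits with 10 or more counts, the annotation lists 29 short forms in 15 genes. Of these forms, 12 are annotated without a stop codon and so are incomplete models. The number is one of annotated forms, and some, such as Il6st-204 and Il6st-209, had 0 counts in both libraries. It was not set beside that of other genes. The rule also took in Il1rap-201, at 83.2% of the longest coding sequence, although Il1rap-201 has a membrane stretch and serves here as the anchored form. Of the 17 with a stop codon, 11 with a complete start had no membrane stretch found. Among these 11, Il2ra-202, with 44 residues, was too short to be searched for such a stretch.

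Il1rap showed the highest share of a short form among the detected subunits. Il1rap-206, with 360 residues and no membrane stretch against 570 residues in Il1rap-201, held 65.5% of the gene's TPM in replicate 1 and 53.1% in replicate 2 (59.3% ± 8.76, SD, n = 2), from 60.4 and 118 estimated counts. The table made from the read files gave 59.4% and 53.0%. As a share of counts, in which the longer form weighs more, the mean was 41.8%. A secreted form of the IL1 receptor accessory protein is known. The bases of Il1rap-206 that set it apart lie in an intron of Il1rap-201, so reads from unspliced precursor RNA and reads from the short transcript cannot be told apart in these nuclear libraries.

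Ifnar2-203 codes for 248 residues, against 513 in Ifnar2-201, and likewise ends in intron sequence. It held 18.6% of the Ifnar2 TPM in replicate 1 and 41.0% in replicate 2, and 37.2% and 48.0% in the table made from the read files, but 10.5% and 23.3% of the counts. The form that reaches its own end by splicing, Ifnar2-202, with 247 residues, was rare at 2.85% and 0.875%, and at 4.19% and 4.10% in the other table. Secreted forms of Ifnar2 are known in the mouse. Ifnar2-203 rested on 177 and 457 estimated counts and Ifnar2-202 on 72.6 and 26.1. As for Il1rap-206, reads of Ifnar2-203 and of unspliced precursor RNA cannot be told apart where they share the intron.

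The Il4ra short form is spliced to a separate exon, although its coding end lies within the part of intron 7 that the retained-intron Il4ra-204 also covers, so reads there may come from either or from precursor RNA. Il4ra-205 codes for 230 residues against 810 and has no membrane stretch, and GENCODE annotates it for nonsense-mediated decay, so the rule for short coding forms did not take it in. It held 13.7% and 17.0% of the Il4ra TPM, from 1944 and 1682 estimated counts, more than any other short form described here. The table made from the read files gave 17.3% and 23.8%. At 39.7 and 22.8 TPM this form alone stood at about the level of Il6st. A soluble IL4 receptor made from an added exon is known in the mouse.

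Il6st-206 codes for 164 residues against 917 and held 32.7% and 23.4% of the Il6st TPM, but 16.6% and 14.0% in the table made from the read files and 15.8% and 10.3% of the counts. In Il10rb a transcript annotated for nonsense-mediated decay, Il10rb-205, with 52 residues, also reads into an intron and held 28.6% and 20.9%, with 29.3% and 25.7% in the other table. Il2ra-202, with 44 residues, held 49.1% and 30.0% of the TPM of a low gene and 25.4% and 9.09% of its counts, which were 21.6 and 11.6. Il21r-202 held 31.5% and 10.3% in the alignment-based tables and 0% in the other, so its share depended on the table. Il7r-204 lost the end of the protein but kept a membrane stretch, at 286 residues against 459, with 4.67% and 7.24%. Il17rd-202, at 50.6% and 37.5%, rested on 12.0 and 11.3 counts, or 25.5% and 18.5% of those of its gene. The coding bases that set Il6st-206, Il10rb-205 and Il17rd-202 apart lie in introns. Reads of these forms and of unspliced precursor RNA cannot be told apart there.

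**Figure D3:**
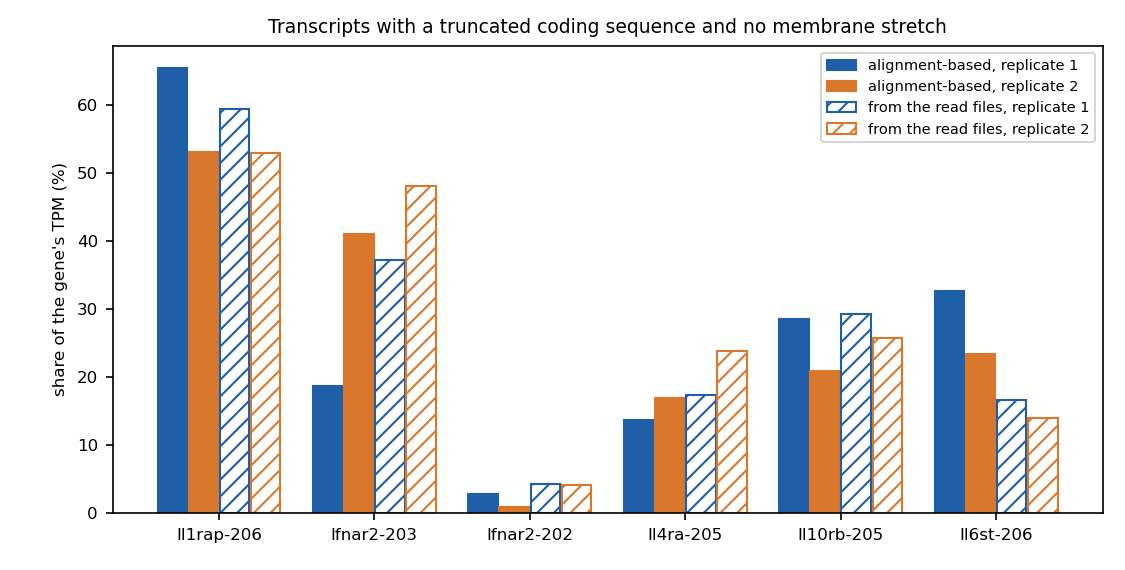
Share of the gene's TPM (%) held by 6 transcripts with a truncated coding sequence and no membrane stretch found, in replicate 1 and replicate 2, with filled bars for the alignment-based tables and hatched bars for the table made from the read files. Il10rb-205, with 52 residues, was too short to be searched for such a stretch. Il1rap-206 is above 50% in all 4 bars, while Ifnar2-203 spans 18.6% to 48.0%.

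Transcripts annotated with a retained intron held a large part of several receptors' levels. Among the 11 subunits at 5 TPM or more in both libraries that have such a transcript, the median share was 36.9% of TPM, against 36.0% over 3788 protein-coding genes, so the subunits' median lay close to that of other genes. In 3 of the 11, Il15ra, Il11ra1 and Il17ra, the share was 50% or more in both libraries, a level that 21.9% of the 3788 genes reached. Introns are numbered on the complete coding transcript with the highest mean TPM, which for Il15ra is Il15ra-214, with 123 residues. The boundaries at which 4 of the leading transcripts run on into an intron are shown here. The last 20 exon bases are in lower case and the first 20 intron bases in capitals:
Il15ra-208 intron 2: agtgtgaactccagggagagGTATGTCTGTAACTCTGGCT
Il17ra-203 intron 9: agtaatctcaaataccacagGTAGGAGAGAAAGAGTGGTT
Ifnar1-205 intron 2: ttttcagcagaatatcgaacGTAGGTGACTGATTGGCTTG
Il4ra-204 intron 7: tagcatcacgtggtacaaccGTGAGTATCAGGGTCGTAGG
The Il4ra-204 boundary follows the same exon after which Il4ra-205, shown above, takes its separate exon.

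Il15ra had the highest mean share, 79.1% in replicate 1 and 79.4% in replicate 2 (79.3% ± 0.217, SD, n = 2), and its coding transcripts held 17.9% and 18.3%. Il15ra-208 keeps the whole of intron 2 of Il15ra-214 (1670 bases at chr2:11718343-11720012) and runs into its intron 3. Il15ra-208 also has 186 bases within intron 1 of Il15ra-214, so the numbers need not match other coding forms. Il15ra-208 alone held 43.8% and 49.8%. Taken over all transcripts Il15ra was above Ifnar1. In the alignment-based tables the coding transcripts of Il15ra came to 36.5 and 28.0 TPM, below those of Ifnar1 at 64.2 and 47.6 TPM. That order depended on the table. In the table made from the read files, coding transcripts were 31.3% and 20.1% of 164.3 and 118.5 TPM for Il15ra. For Ifnar1 they were 35.4% and 43.4% of 82.5 and 59.6 TPM, so coding Il15ra was the higher in replicate 1 there. Il17ra-203 keeps introns 9 and 10 of 12 and held 75.9% and 74.5% of the Il17ra TPM, with 66.4% and 67.7% in the table made from the read files. Ifnar1-205, which runs 1970 bases into intron 2, held 50.2% and 46.3%, and 49.5% and 45.4% in the other table. In Il4ra, Il4ra-204 runs 690 bases into intron 7 and held 37.9% and 30.4%.

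At the other end, Il10ra, Il6st, Ifnar2 and Il13ra1 have no retained-intron transcript in the annotation, so their share of 0% says nothing about their introns. Il2rg had a small share, at 21.5% and 8.72%, and Ifngr1 at 18.9% and 6.73%, with the lower value in replicate 2 for both. Il10rb was at 9.58% and 8.28%. Share by share, the libraries differed by more than 10 percentage points in Il2rg and Ifngr1 alone of the 11. In nuclear RNA, reads of precursors that are still to be spliced and reads of finished transcripts that keep an intron cannot be told apart in these tables.

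**Figure D4:**
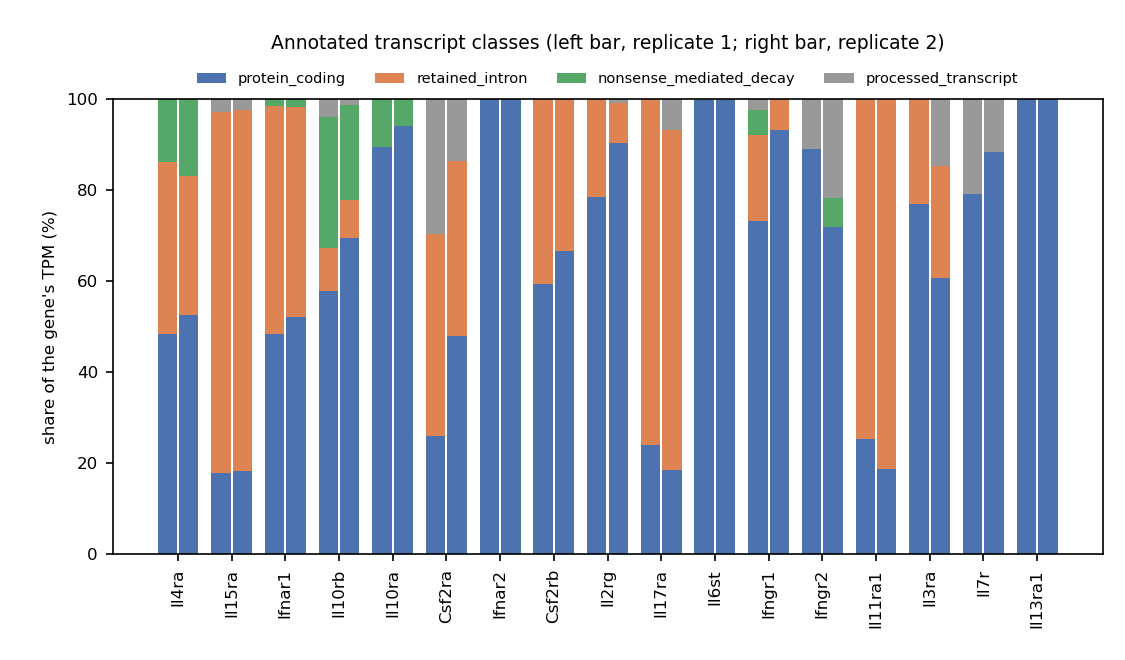
Share of the gene's TPM (%) by annotated transcript class for the 17 subunits at 5 TPM or more in both libraries, ordered by mean level, with replicate 1 as the left and replicate 2 as the right bar of each pair. Il15ra, Il17ra and Il11ra1 are mostly retained_intron, while Ifnar2, Il6st and Il13ra1 are nearly all protein_coding.

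Over all 29 subunits with 10 or more counts, 74 transcripts held 10% or more of their gene's TPM in either library. In the interferon gamma receptor the long coding forms led in the alignment-based tables, with Ifngr1-201 at 73.2% and 93.3% and Ifngr2-201 at 89.0% and 71.9%. In the type I receptor they did not lead throughout by share of TPM. Ifnar1-201 held 47.8% and 50.8%, below Ifnar1-205 in replicate 1, and Ifnar2-201 held 43.1% and 39.9%, below Ifnar2-203 in replicate 2. By share of counts they led in both libraries, with Ifnar1-201 at 62.2% and 64.8% and Ifnar2-201 at 78.1% and 72.7%. In the table made from the read files they led in neither library. Ifnar2 also held 2 incomplete coding fragments, Ifnar2-205 at 23.4% and 16.01% and Ifnar2-204 at 11.9% and 2.26%. Il10ra was mostly one full-length form, Il10ra-201, at 88.4% and 93.5%, with the decay-annotated Il10ra-203 at 10.6% and 5.98%, and Il10rb-201 held 57.8% and 69.5%. Il4ra-201 held 47.6% and 51.6%, but 19.1% and 27.3% in the table made from the read files.

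Csf2ra was the most divided of the abundant subunits. Its coding form Csf2ra-201 held 26.0% in replicate 1 and 47.2% in replicate 2, the retained-intron forms Csf2ra-205 and Csf2ra-202 held 24.2% and 15.1% in replicate 1 and 15.0% and 18.1% in replicate 2, and the noncoding Csf2ra-204 held 19.8% and 13.5%. Its partner Csf2rb had Csf2rb-201 at 59.3% and 60.8% and the retained-intron Csf2rb-205 at 33.7% and 26.9%. Il3ra-203 and Il3ra-201, which both code for 396 residues, held 59.8% and 17.1% in replicate 1 and 42.3% and 9.20% in replicate 2. The coding form of the common gamma chain, Il2rg-201, held 74.1% and 88.4%, and that of Il7r, Il7r-201, held 74.4% and 81.1%.

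For gp130, Il6st-203 and Il6st-201, which code for the same 917 residues, held 43.0% and 23.95% in replicate 1 and 52.9% and 23.5% in replicate 2. Il6ra was divided between Il6ra-201 at 60.4% and 67.3% and Il6ra-202 at 39.6% and 32.7%, and the order of these turned in the table made from the read files, at 22.5% and 41.5% for Il6ra-201. In Il11ra1 the retained-intron Il11ra1-206 held the largest share of TPM, 46.9% and 68.6%, but 17.8% and 32.0% of the counts, and its coding forms were Il11ra1-204 at 16.8% and 6.04% and Il11ra1-201 at 8.45% and 12.6%. Il13ra1 and Il12rb2 each had all of their alignment-based TPM in 1 coding form, Il13ra1-201 and Il12rb2-201.

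Among the low subunits the shares rest on few reads. The coding Il18rap-201 held 29.9% and 37.8% and the retained-intron Il18rap-202 held 45.2% and 44.9%, a share that was 84.4% and 83.5% in the table made from the read files. Il20rb-201 held 34.0% and 49.3%, Il2ra-201 held 25.7% and 55.7%, and Il21r-201 held 48.1% and 71.2%. Il1r1 was mostly Il1r1-202, at 89.4% and 100%, in the alignment-based tables and mostly Il1r1-201, at 82.5% and 85.9%, in the other. Il1rl2-204 held 46.6% and 79.1% of Il1rl2. Of Il17rb, with 12 and 16 counts, 55.7% and 78.0% was the decay-annotated Il17rb-203.

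The 2 libraries were compared for the subunits as a measure of spread. The log2 ratio of (TPM + 1) in replicate 2 over replicate 1 was taken relative to the median gene at a mean of 1 TPM or more, which stood at -0.58. Of the 29 subunits with 10 or more counts, 21 lay above and 8 below that median, with a median of 0.22 and an SD of 0.55, against 0.12 and 0.51 for protein-coding genes. By a relative log2 ratio of 1 or more, 2 of 29 were higher in replicate 2, and 4.79% of protein-coding genes were. These were Il1rap at 1.12 and Il7r at 1.01. By -1 or less, 1 of 29 was lower, Il20rb at -1.14, where 0.922% of protein-coding genes were. Next to it, Csf2ra was at -0.91, Il10ra at -0.57 and Il4ra at -0.52, and Ifngr1 was at 0.87. Il20rb was low in the library in which the 10 stromal markers had 66 counts, against 5731 in the other, and the part of those cells in the difference was not tested. Il1rap and Il7r were high in the library with the higher macrophage marker sum and mitochondrial share, and the part of these was not tested either.

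**Figure D5:**
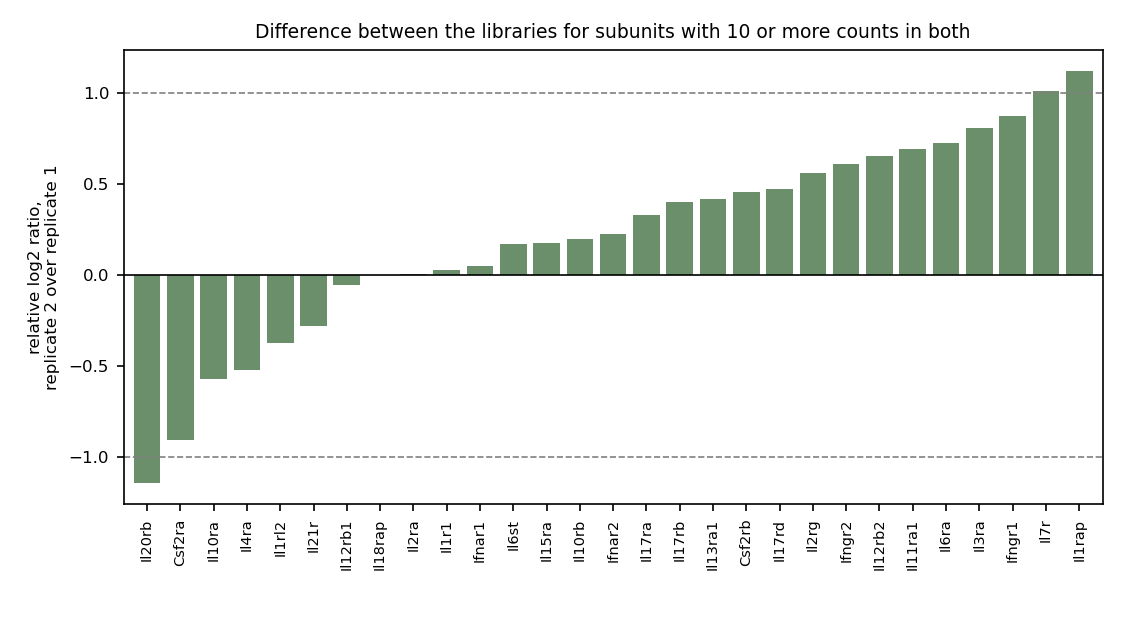
Relative log2 ratio of replicate 2 over replicate 1 for the 29 subunits with 10 or more counts in both libraries, ordered by value, with dashed lines at 1 and -1. Il1rap and Il7r lie above the upper line, Il20rb below the lower one, and Il10ra, Il4ra and Csf2ra lie between -0.5 and -1.

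The partners of these receptors were read from lists of the pathway. Of the JAK kinases and STAT factors, which carry the signal from most of these receptors, 10 of 11 were detected, led by mean level by Stat2, which acts in interferon signalling, at 385.7 and 189 TPM, and Stat5a, which acts below the CSF2 and gamma chain receptors, at 350.1 and 124.9 TPM. In replicate 2 Jak2, at 129.7 TPM, was above Stat5a. Stat4, the factor below the IL12 receptor, was at 1.52 and 0.69 TPM. Of the adaptors of the IL1 and IL17 receptors, 8 of 9 were detected, led by Irak2 at 141.9 and 51.2 TPM and Myd88 at 40.1 and 25.4 TPM. Among other cytokine receptors 5 of 15 were detected, led by mean level by Csf1r, the macrophage growth factor receptor, at 95.5 and 204.5 TPM and Csf3r at 74.5 and 44.4 TPM, although Csf2rb2 was above Csf3r in replicate 2.

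The ligands themselves were present for some of these receptors in the same RNA. Of 33 ligand genes matched, 11 were detected. By the mean of both libraries the highest were Il15, at 339.9 and 164 TPM, whose receptor chain Il15ra was also among the highest subunits, and Il1b, at 162.3 and 121.4 TPM. In replicate 2 Il1rn, at 154.8 TPM, and Il1a, at 129.4 TPM, were above Il1b. Il10 was at 42.4 and 31.1 TPM and Ifnb1 at 15.7 and 16.6 TPM, with both chains of their receptors detected. Il4, Il13, Il3, Il5, Il2 and Il9 had 0 counts in both libraries, among them the ligands of Il4ra and Il3ra. A further list held 5 genes for antagonists, soluble cytokine binders and decoy receptors. Of these, Il1rn, the IL1 receptor antagonist, which is also in the ligand list, was at 98.7 and 154.8 TPM. Il18bp, which binds IL18, was at 18.3 and 15.8 TPM, while the decoys Il1r2, Il13ra2 and Il22ra2 were not detected.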

How the data were processed

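The authors deposited gene and transcript tables derived from a transcriptome alignment, with expected counts (estimated reads, not whole numbers), TPM and FPKM, and a transcript table with estimated counts and TPM made from the read files, per the notes deposited with the files (mm10, GENCODE M21). Which aligner and quantifier made them, in which version and with which strand setting: not given in the sources used here. Symbols were linked to the gene tables by gene ID, and all 44 members were found. The members and the gene lists were chosen with earlier results of these data known.

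Levels are the deposited TPM. The named genes are all 44 members, with values where detected or with 10 counts in either library and otherwise with counts, transcripts with 10% or more of their gene's TPM in either library or a short form of interest, and the 2 highest genes of each pathway list. A count of 0 is given the upper limit of 3 counts, for counting error only. The relative log2 ratio used a pseudocount of 1, and that step was tested on simulated data. Alternative scalings used edgeR 4.0.16 (TMM) and DESeq2 1.42.0 (size factors) in R 4.3.3 on expected counts, FPKM, other thresholds and the table made from the read files. Other steps used Python 3.11.15 with pandas 2.3.3. Coding sequences come from the GENCODE M21 transcripts, and no protein table was used here.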

Additional observations from a re-analysis of the deposited data

How the results depend on the processing

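No paired analysis was possible because both libraries belong to 1 group. The number of detected subunits (24) and of pairs with the first subunit higher (5) stayed within 1.5 times under every alternative run for them. The subunits' median mean level, 2.59 TPM, became 3.71 TPM in the table made from the read files and 9.94 TPM when scaled over nuclear-encoded protein-coding genes. The table made from the read files left 1 subunit higher (Il1rap, relative log2 1.01) and 0 lower in replicate 2, a minimum of 100 counts left 0 lower, and a pseudocount of 0.1 gave 2 lower (Il20rb -1.40 and Il1rl2 -1.14). Ifngr1 joined those higher under TMM and DESeq2 scaling, at 1.13 in each. The median share of coding transcripts over the 29 subunits, 80.4%, became 57.3% in the table made from the read files, 87.4% by counts, and 77.0% to 79.1% with 1 library left out. The median retained-intron share, 36.9% (36.0% over all genes), became 44.4% (39.1%) in that table. The log2 ratio of Ifngr1 to Ifngr2 turned from 0.14 to -0.92 and that of Il12rb1 to Il12rb2 from -1.04 to 0.97 there. The cause of these shifts was not tested. With 2 libraries the SD has 1 degree of freedom, and subunits under 10 counts have no usable ratio or isoform share.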
